A study of Homo sapiens with 6 samples.

Results

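The genes described are 8 members of the death receptor and caspase machinery, found by their symbols among the 23827 genes of the deposited tables. They are the TRAIL receptors TNFRSF10A and TNFRSF10B, the receptor FAS, the initiator caspases CASP8 and CASP9, the caspase-8 decoy CFLAR, and the inhibitors of apoptosis BIRC2 and XIAP. Other genes of the same pathway, 53 in all and taken from a list, are given beside them. The cells were A549, a human lung adenocarcinoma line, kept for 24 h in medium to which 20 mM lactic acid had been added, or in medium with an equal volume of phosphate-buffered saline (PBS). Each of the 2 groups held 3 libraries of poly(A)-selected RNA, called biological replicates in the labels. All 6 came from this 1 line and this 1 time point, and lactate without acid was not analysed here. In bulk RNA, fewer cells expressing a gene and less of its RNA per cell cannot be told apart.

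Death receptors sit in the plasma membrane and carry a cytoplasmic death domain. When their ligand (TRAIL for TNFRSF10A and TNFRSF10B, FAS ligand for FAS) clusters them, the adaptor FADD binds and recruits procaspase-8, which is activated by proximity and cleaves the effector caspases. CFLAR (cellular FLIP) resembles caspase-8 but lacks its catalytic cysteine, and it competes in the same complex. CASP9 is activated by stress instead, on the APAF1 apoptosome after cytochrome c leaves the mitochondria. XIAP binds and blocks active caspases directly, while BIRC2 (cIAP1) is mainly a ubiquitin ligase of receptor complexes and of NF-kB signalling. Much of this pathway acts through protein processing, which RNA levels do not show.

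The libraries held 33492831 to 42938870 counts in genes. Of the markers listed for A549 and lung epithelium, KRT8, KRT18, ALDH1A1 and NQO1 stood at 899.6 CPM or more in every library (CPM, counts scaled to a library of 1000000 with TMM factors). KRT19 stood at 60.8 to 74.4 CPM, EPCAM at 1.12 to 3.83 CPM and CDH1 at 11.5 to 22.0 CPM. Of the 10 epithelial and A549 markers 4 rose and 4 fell, EPCAM to 0.497 and CDH1 to 0.586 of the PBS level (edgeR adjusted p = 0.00426 and 3.67e-05). Endothelial markers summed to at most 0.449 CPM, and CD3E, LYZ and CDH5 had no count. CD14 carried nearly all of a leukocyte sum of 4.30 to 6.81 CPM. Of 6 fibroblast markers, 4 were tested and all 4 fell, with a summed level of 113 to 126 CPM in PBS and 80.7 to 88.1 CPM after lactic acid, nearly all of it COL1A1; COL1A2 was at 0 in 4 libraries, and the part of this in the results was not tested.

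In edgeR's quasi-likelihood test of lactic acid against PBS, 3 of the 8 members rose and 0 fell at a Benjamini-Hochberg adjusted p under 0.05 over 15474 genes. The rises were in TNFRSF10A, TNFRSF10B and XIAP, and none exceeded 1.18-fold. Over all tested genes 35.4% were called, 18.7% higher and 16.7% lower, so the 37.5% of members called is close to the share called in either direction and above the share called higher, on a list of 8 genes. CFLAR had an unadjusted edgeR p of 0.0324 and did not pass after adjustment. DESeq2 and limma-voom also gave 3 rises and 0 falls among the members, and called 2740 and 2920 of the 15474 genes higher. All 8 members passed the filter on low counts. Their median log2 fold change was 0.11, against 0.0024 for all tested genes, whose median change in size was 0.17. Because the list was chosen with earlier results of these data known, these shares and medians do not test the members as a set.

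**Figure D1:**
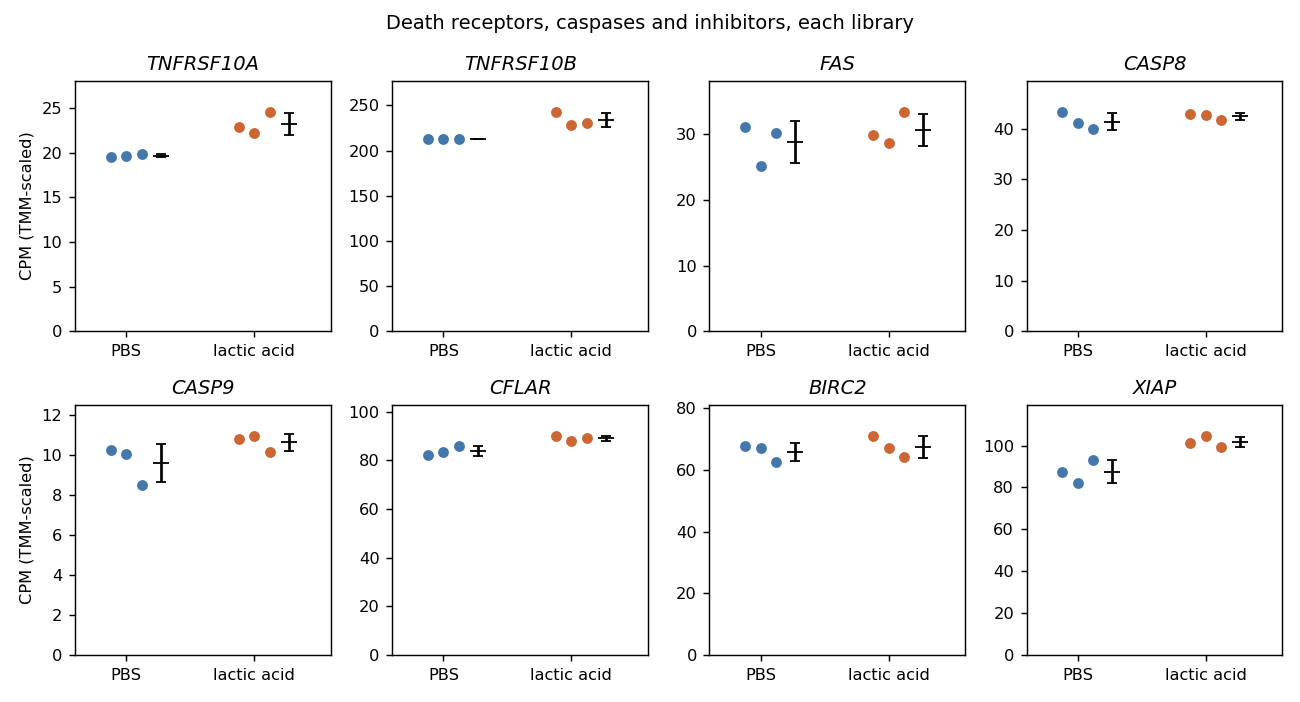
TMM-scaled CPM (vertical axis, from 0) of the 8 members in each PBS library (blue) and each lactic acid library (orange); black marks are the mean and SD of 3 libraries. The groups stand apart for TNFRSF10A, TNFRSF10B, CFLAR and XIAP, and the differences are small against the level of each gene.

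TNFRSF10A lies on chromosome 8 at 23190452 to 23225126, minus strand (GRCh38), and TNFRSF10B at 23020133 to 23069179 on the same strand. TNFRSF10A stood at 19.5, 19.7 and 19.9 CPM in the PBS libraries and at 22.9, 22.2 and 24.5 CPM after lactic acid. The 3 PBS libraries were almost level, and every lactic acid library was above them. The change was 1.18-fold (mean 19.7 ± 0.173 to 23.2 ± 1.21 CPM, SD over n = 3 libraries; log2 fold change 0.24, SE 0.0623, edgeR adjusted p = 0.0114). This call rested on the third lactic acid library, the highest of the group: without it the log2 fold change was 0.19 and the adjusted p 0.0504.

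TNFRSF10B, the more abundant TRAIL receptor, stood at 213, 213 and 212 CPM in PBS and at 242, 228 and 231 CPM after lactic acid. Again the PBS libraries were tight and the groups did not overlap. The change was 1.10-fold (95% interval 1.04 to 1.16; edgeR adjusted p = 0.00997). On the log2(FPKM + 1) scale, tested with limma-trend, the log2 fold change was 0.097 and the adjusted p 0.0773. TNFRSF10B overlaps RHOBTB2 by 67 bases on the opposite strand. RHOBTB2, named because it shares these bases, rose 1.44-fold (53.3 ± 1.63 to 76.8 ± 1.31 CPM). Reads in the overlap cannot be assigned without a stated strand setting. The same limit holds for opposite-strand genes that are not among the 23827 genes. These include AC107959.2 for TNFRSF10B (951 bases), AC100861.1 for TNFRSF10A (656), XIAP-AS1 for XIAP (1307) and CFLAR-AS1 for CFLAR (17546). The log2 ratio of TNFRSF10B to TNFRSF10A was 3.45, 3.44 and 3.42 in PBS and 3.40, 3.36 and 3.23 after lactic acid, lower in every treated library (difference −0.10; exact two-sided permutation p = 0.1, the smallest that 3 against 3 allows, and 0.4 adjusted over 4 ratios). Without the third lactic acid library the difference was −0.053.

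FAS, on chromosome 10 at 88990582 to 89015785, stood at 31.2, 25.1 and 30.3 CPM in PBS and at 29.9, 28.7 and 33.4 CPM after lactic acid. The groups overlapped, and the second PBS library was the low value among the 6. The estimated change was 1.06-fold, with a 95% interval from 0.937 to 1.20 and an edgeR adjusted p of 0.457. Without the second PBS library the log2 fold change was −0.0093. FAS shares 758 bases with ACTA2 on the other strand; ACTA2 had a fold of 0.996 (edgeR adjusted p = 0.939).

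Ligands for the TRAIL receptors and FAS were barely present. TNFSF10, which encodes TRAIL, had 3, 4 and 3 counts in PBS and 0, 4 and 6 after lactic acid, and FASLG had 2 counts in a single lactic acid library. TNF had 0, 2 and 3 counts in PBS and 10, 2 and 6 after lactic acid. Neither these ligands nor LTA, which had 2 counts in all, passed the filter, and levels this near the floor of 3 counts per library (0.0705 to 0.0891 CPM, counting error only) support no direction.

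Of the 16 listed ligands, other receptors and decoys, 9 were tested, and 2 rose and 1 fell (median log2 fold change −0.0098). TNFRSF10D, a decoy TRAIL receptor with a truncated death domain, stood at 47.1, 50.2 and 54.2 CPM in PBS and at 67.2, 69.0 and 66.4 CPM after lactic acid. It rose 1.34-fold (95% interval 1.24 to 1.44; edgeR adjusted p = 4.39e-05), with no overlap between groups. The log2 ratio of TNFRSF10D to TNFRSF10B, a pair chosen after its values were seen, moved from a mean of −2.08 ± 0.102 to −1.79 ± 0.0641 (SD, n = 3), higher in all 3 treated libraries (exact permutation p = 0.1, the smallest possible). TNFRSF10C, the decoy that is anchored by a lipid and lacks a cytoplasmic tail, was rare, at 3.77 ± 0.455 and 4.22 ± 0.133 CPM (fold 1.12, 95% interval 0.905 to 1.38, edgeR adjusted p = 0.407). TNFRSF1A, the main TNF receptor, went from 376, 393 and 369 CPM to 317, 326 and 320 CPM and fell, to 0.846 of its PBS level (edgeR adjusted p = 0.000184). LTBR, the lymphotoxin beta receptor, which has no death domain, rose 1.09-fold (edgeR adjusted p = 0.0219), a call that went when PBS replicate 1 or 3 or lactic acid replicate 2 or 3 was omitted (0.0502 to 0.0844), under unscaled library totals (0.0575) and under limma-trend of log2(FPKM + 1) (0.0796).

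**Figure D2:**
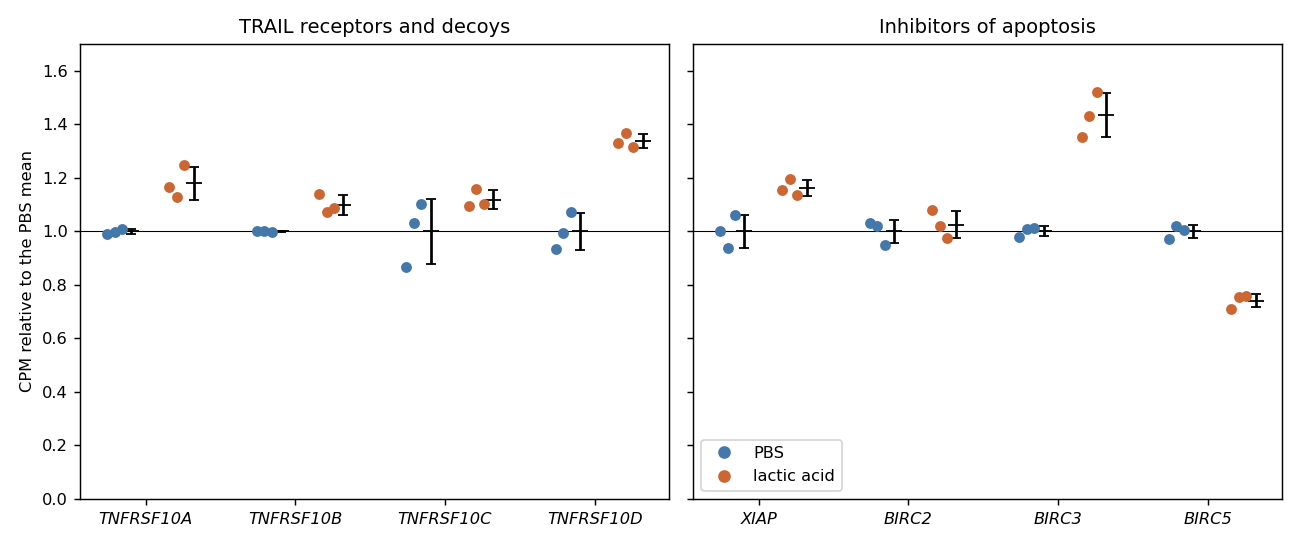
CPM of the TRAIL receptors and decoys (left) and of XIAP, BIRC2, BIRC3 and BIRC5 (right), divided by each gene's PBS mean, for each PBS (blue) and lactic acid (orange) library; black marks are mean and SD of 3 libraries. TNFRSF10D and BIRC3 lie highest after lactic acid, at 1.34-fold and 1.43-fold, and BIRC5 lies lowest.

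CASP8 and CFLAR both lie on the plus strand of chromosome 2, at 201233443 to 201287711 and 201116104 to 201176687, with CASP10 between them. CASP8 stood at 43.2, 41.1 and 39.8 CPM in PBS and at 42.97, 42.6 and 41.7 CPM after lactic acid. The treated values lay inside the PBS range, with a fold of 1.03 (95% interval 0.962 to 1.09; edgeR adjusted p = 0.533). CFLAR stood at 82.1, 83.6 and 86.1 CPM in PBS and at 90.1, 88.0 and 89.1 CPM after lactic acid. Every treated library was above every PBS library, yet the difference of 1.06-fold (95% interval 1.01 to 1.12) did not pass the threshold over all genes (edgeR adjusted p = 0.0802). CFLAR was thus the fourth member whose CPM groups did not overlap, as was the case with higher values after lactic acid for 24.4% of all tested genes; groups apart with lower values made up 23.1% and held no member, and in either direction 47.5% of tested genes had groups apart against 4 of the 8 members.

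On the log2(FPKM + 1) scale the sign for CFLAR turned, to a log2 fold change of −0.13 (limma-trend adjusted p = 0.288). The log2 ratio of CFLAR to CASP8 from CPM was 0.925, 1.03 and 1.11 in PBS and 1.07, 1.05 and 1.10 after lactic acid. These ranges overlap (difference 0.049, exact permutation p = 0.5, 0.6 adjusted over 4 ratios), and the difference was −0.13 from FPKM. With 3 libraries a group the exact permutation test cannot go below p = 0.1, so it could not have passed the threshold.

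CASP9, on chromosome 1 at 15490832 to 15526534 on the minus strand, was the lowest member, with 338 to 466 counts per library. It stood at 10.3, 10.04 and 8.52 CPM in PBS and at 10.8, 11.0 and 10.2 CPM after lactic acid. The third PBS library was the low value and the groups overlapped. The fold was 1.11, with the widest interval of the 8 members (0.956 to 1.29; edgeR adjusted p = 0.266), so that a change as large as that of XIAP lies within it. Without the third PBS library the log2 fold change went from 0.15 to 0.063. The log2 ratio of XIAP to CASP9 was 3.09, 3.03 and 3.45 in PBS and 3.23, 3.25 and 3.29 after lactic acid (exact permutation p = 0.6, also 0.6 adjusted over 4 ratios).

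Among the 11 other caspases and nuclease genes, 9 were tested, and 1 rose and 2 fell. CASP2, an initiator activated on the PIDDosome, fell to 0.895 of its PBS level (edgeR adjusted p = 0.00696), and DFFA, the inhibitor and chaperone of the caspase-activated nuclease, fell to 0.864 (edgeR adjusted p = 0.00516). CASP10, the paralog of CASP8, was at 8.04 ± 0.399 and 6.88 ± 0.327 CPM (fold 0.856, 95% interval 0.737 to 0.994, edgeR adjusted p = 0.1). CASP5 and CASP14 had no count in any library.

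XIAP, on chromosome X at 123859724 to 123913979 on the plus strand, stood at 87.6, 82.2 and 93.0 CPM in PBS and at 101, 105 and 99.5 CPM after lactic acid. The lowest treated library was above the highest PBS library. The rise was 1.16-fold (mean 87.6 ± 5.42 to 102 ± 2.60 CPM, SD, n = 3; log2 fold change 0.22, SE 0.0465, edgeR adjusted p = 0.00367), the smallest p among the members. The call held with each library left out and was lost in limma-trend of unfiltered log2(FPKM + 1) (0.0563). Its nearest matches in shape, by Euclidean distance of log2 CPM centred per gene over the 6 libraries among 10842 genes with at least 5 CPM, were AC013394.1 (distance 0.040), WIPF2 (0.059) and CNEP1R1 (0.065), with folds of 1.17, 1.15 and 1.16. Their edgeR adjusted p was 0.0656, 0.00417 and 0.00439, so AC013394.1 did not pass the threshold. Folds near that of XIAP follow from choosing genes by their distance to it, and shared regulation was not tested.

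BIRC2, on chromosome 11 at 102347211 to 102378670, stood at 67.9, 67.0 and 62.5 CPM in PBS and at 71.0, 67.1 and 64.2 CPM after lactic acid. The groups overlapped, with a fold of 1.03 (95% interval 0.956 to 1.10; edgeR adjusted p = 0.584). The log2 ratio of BIRC2 to XIAP averaged −0.41 ± 0.145 in PBS and −0.59 ± 0.0731 after lactic acid (SD, n = 3; exact permutation p = 0.2, 0.4 adjusted over 4 ratios), in a design that could not pass the threshold. BIRC3 (cIAP2), the paralog of BIRC2 that lies just before it at 102317450 to 102339403, rose from 33.5, 34.5 and 34.7 CPM to 46.4, 49.0 and 52.1 CPM, or 1.43-fold (95% interval 1.33 to 1.54; edgeR adjusted p = 7.54e-06). The log2 ratio of BIRC3 to BIRC2, chosen after its values were seen, was −0.94 ± 0.0863 in PBS and −0.46 ± 0.156 after lactic acid (SD, n = 3), higher in all 3 treated libraries (exact permutation p = 0.1, the smallest possible).

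The 250 bases before the RefSeq start site of XIAP, CFLAR, BIRC2 and BIRC3 (GRCh38.p14, all plus strand, 5′ to 3′) are shown because these inhibitors divide into XIAP and BIRC3, which rose, and CFLAR and BIRC2, which did not pass the threshold. Capitals mark matches on either strand to any of 6 motifs: the GC box GGGCGG, the so-called CCAAT box, the TATA box TATAAA, the hypoxia response core ACGTG, the composite ATF4-CHOP core TGATGCAA and the AP-1 site TGACTCA.
XIAP, chrX:123859458-123859707: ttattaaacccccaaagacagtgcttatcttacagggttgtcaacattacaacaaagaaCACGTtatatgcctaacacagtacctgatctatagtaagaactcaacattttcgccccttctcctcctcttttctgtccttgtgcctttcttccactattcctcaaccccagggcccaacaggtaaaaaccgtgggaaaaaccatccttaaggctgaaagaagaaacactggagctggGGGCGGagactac
CFLAR, chr2:201118466-201118715: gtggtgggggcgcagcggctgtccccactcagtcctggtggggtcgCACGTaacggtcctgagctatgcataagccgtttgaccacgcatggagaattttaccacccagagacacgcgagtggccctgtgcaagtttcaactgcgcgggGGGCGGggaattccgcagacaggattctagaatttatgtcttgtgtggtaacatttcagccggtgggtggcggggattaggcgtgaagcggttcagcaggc
BIRC2, chr11:102346964-102347213: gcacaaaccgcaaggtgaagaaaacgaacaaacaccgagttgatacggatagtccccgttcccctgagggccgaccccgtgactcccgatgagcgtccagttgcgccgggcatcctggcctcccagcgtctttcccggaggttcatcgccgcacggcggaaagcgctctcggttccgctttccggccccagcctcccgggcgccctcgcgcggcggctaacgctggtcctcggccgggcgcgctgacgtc
BIRC3, chr11:102317234-102317483: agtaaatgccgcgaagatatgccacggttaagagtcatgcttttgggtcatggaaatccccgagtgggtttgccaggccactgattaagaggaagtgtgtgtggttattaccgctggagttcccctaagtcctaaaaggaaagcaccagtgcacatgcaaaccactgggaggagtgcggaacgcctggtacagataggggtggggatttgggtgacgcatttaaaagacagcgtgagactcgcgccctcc
XIAP and CFLAR each held 1 GC box on the plus strand and 1 ACGTG on the minus strand, which reads CACGT as printed. Counted from −1 at the base before the start site, they began at −13 and −191 for XIAP and at −101 and −204 for CFLAR. The CFLAR window lies inside the GENCODE span of that gene, which begins at 201116104, so it precedes a start site within the gene. The BIRC2 and BIRC3 windows end just past the GENCODE starts of those genes (102347211 and 102317450). A GC box was found in 42.6% and ACGTG in 18.5% of all 35116 promoters in the RefSeq table over the same length. BIRC2 and BIRC3 held none of the 6 in this window. Their base composition differed, with 67.6% G and C and 33 CpG for BIRC2 against 52.4% and 11 CpG for BIRC3, where the median of all promoters was 58%. XIAP, which passed the threshold, and CFLAR, which did not, share both matches. The 95% intervals of their folds overlap (1.08 to 1.25 for XIAP and 1.01 to 1.12 for CFLAR). Whether the motifs relate to the changes was not tested.

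The other inhibitors and their antagonists numbered 10, all tested, of which 2 rose and 2 fell (median log2 fold change −0.12). BIRC5 (survivin), a mitotic protein as well as an inhibitor of apoptosis, fell from 113, 119 and 117 CPM to 82.6, 87.5 and 88.0 CPM, to 0.741 of its PBS level (edgeR adjusted p = 6.96e-06). XAF1, an antagonist of XIAP, rose 1.91-fold from a low level of 1.05 ± 0.105 to 2.00 ± 0.194 CPM (edgeR adjusted p = 0.00482). DIABLO (SMAC), the mitochondrial protein that displaces XIAP from caspases, had a fold of 0.914 (95% interval 0.845 to 0.989; edgeR adjusted p = 0.0722); a second identifier of that symbol, with 26 counts in all, was left out. With unscaled library totals, or without the second PBS or the first lactic acid library, DIABLO passed the threshold as a fall (0.0488, 0.0188 and 0.0369), as it did with the replicate number as a block (0.0351). AREL1, a ubiquitin ligase of such antagonists, fell to 0.910 (edgeR adjusted p = 0.0231), which did not hold when PBS replicate 2 or 3 or lactic acid replicate 1 or 2 was omitted (0.0502 to 0.0912) or under limma-trend of log2(FPKM + 1) (0.0506).

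Adaptors and complex proteins numbered 16, of which 15 were tested, with 3 rises and 5 falls by counts, CYLD among the falls (median log2 fold change 0.018). PEA15, a death effector domain protein that blocks the FADD complex, rose 1.17-fold, from 149, 146 and 149 CPM to 175, 178 and 168 CPM (edgeR adjusted p = 0.000399). FADD itself went from 46.4 ± 0.866 to 42.8 ± 0.996 CPM, or 0.922 of its PBS level (edgeR adjusted p = 0.0340). That call was lost with DESeq2 (0.0815), with limma-voom (0.0522) and when PBS replicate 2 or 3 or lactic acid replicate 1 or 3 was omitted (0.0586 to 0.109). FAF1, which binds FAS, fell to 0.842 (edgeR adjusted p = 0.00121), and TRAF2, which brings BIRC2 and BIRC3 to the TNF receptor complex, to 0.863 (0.00191). Of the PIDDosome parts, PIDD1 fell to 0.793 (edgeR adjusted p = 0.0158, 0.0743 without the third PBS library and 0.0740 from unfiltered log2(FPKM + 1)), whereas CRADD rose 1.25-fold (0.0313), a call lost with no filter (0.0547), with DESeq2 (0.0538) and without each library in turn (0.0625 to 0.102) except the third lactic acid one. APAF1, the apoptosome scaffold, had an edgeR adjusted p of 0.0491 for a 1.09-fold rise, lost in 13 of the 16 alternatives, among them DESeq2 (0.0727) and RLE factors (0.0530). RIPK3, needed for necroptosis, had no count in any library.

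CYLD, a deubiquitinase of RIPK1 complexes, fell to 0.866 by counts (edgeR adjusted p = 0.0190) but rose on the log2(FPKM + 1) scale (log2 fold change 0.41, limma-trend adjusted p = 0.00807), so no direction is given for it, and it is counted among the falls by its counts alone. By counts it also missed the threshold when PBS replicate 1 or 3 or lactic acid replicate 2 or 3 was omitted (0.0501 to 0.0765).

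Across the 53 other pathway genes, 43 were tested, and 8 rose and 10 fell by counts (CYLD included), together 41.9% against the 35.4% of all tested genes. The rises numbered 5 without the first PBS, the third PBS or the second lactic acid library. Of the 18 calls, 11 held in every alternative that tested the gene, among them TNFRSF10D, PEA15, BIRC3 and XAF1 as rises, and TNFRSF1A, FAF1, TRAF2, CASP2, DFFA and BIRC5 as falls. Rises and falls fell on both sides of the pathway. The rises included the decoy receptor TNFRSF10D, the inhibitor BIRC3 and the XIAP antagonist XAF1. The falls included the receptor TNFRSF1A and the inhibitor BIRC5.

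**Figure D3:**
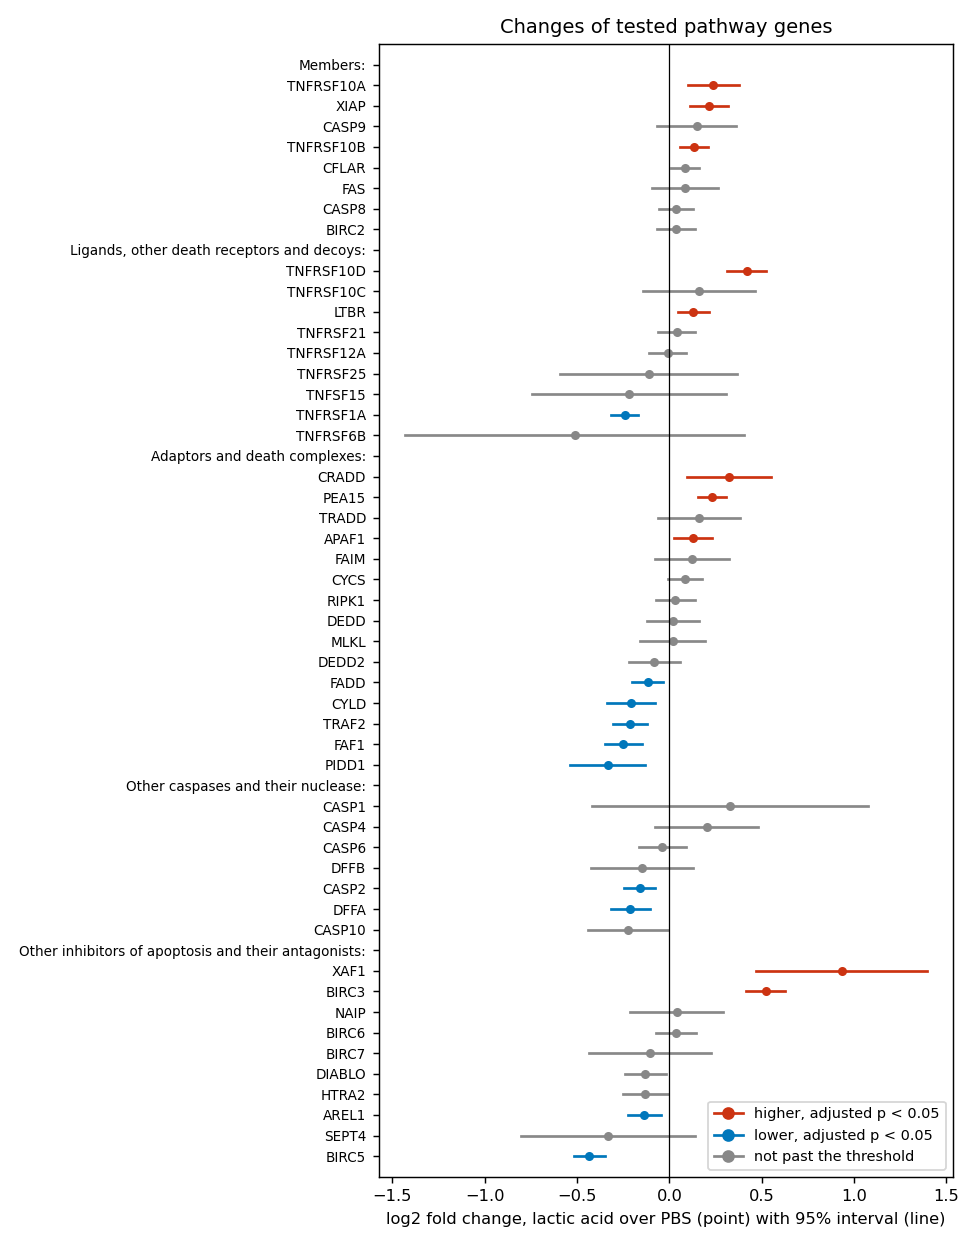
Log2 fold change of lactic acid over PBS (horizontal axis; point) with its 95% interval (line) for the 8 members and tested genes of 4 lists, red where higher and blue where lower at an edgeR adjusted p under 0.05 and grey otherwise. The points of the members all lie right of 0 but within 0.24, and the intervals of FAS, CASP8, CASP9 and BIRC2 span 0. Of all tested genes, 50.4% had a log2 fold change above 0. BIRC3, XAF1, BIRC5 and TNFRSF10D are among the genes that lie farther out.

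Levels between genes can be compared only per length, from the deposited FPKM (fragments per kilobase of transcript, scaled by the mapped total). In PBS the level order was TNFRSF10B (52.8 ± 0.313 FPKM, SD, n = 3), CFLAR (18.3 ± 1.33), BIRC2 (16.7 ± 0.615), CASP8 (16.3 ± 1.67), FAS (11.4 ± 1.28), XIAP (9.77 ± 0.601), TNFRSF10A (6.88 ± 0.133) and CASP9 (3.24 ± 0.499). CFLAR and BIRC2, BIRC2 and CASP8, and FAS and XIAP overlapped in their libraries and cannot be ordered; the other neighbours did not overlap. After lactic acid the order was the same, with the same overlaps, and TNFRSF10B stood at 56.5 ± 2.27 and CASP9 at 3.67 ± 0.609 FPKM.

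The FPKM of CFLAR, CASP9 and CASP8 carried an extra source of spread. The length implied by a gene's count and FPKM in a library was compared across the libraries. For TNFRSF10A, TNFRSF10B, BIRC2 and XIAP the highest and lowest of the 6 libraries differed 1.02-fold to 1.03-fold, near the median of 1.04 over 9913 genes with at least 300 counts in each library. For CFLAR the implied length was 4308, 4403 and 5220 bases in PBS and 6221, 4940 and 4876 bases after lactic acid, a 1.44-fold span. The spans of CASP9, CASP8 and FAS were 1.28-fold, 1.18-fold and 1.06-fold. The first lactic acid library had the lowest FPKM for CFLAR, 14.4 against 16.8 to 19.1 in the others, while its CPM of 90.1 was the highest. Its implied length, computed from these values, was therefore the longest and is not a separate observation. Counts per transcript were not used here, so the isoforms behind these lengths, among them the long and short forms of CFLAR, were not analysed.

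**Figure D4:**
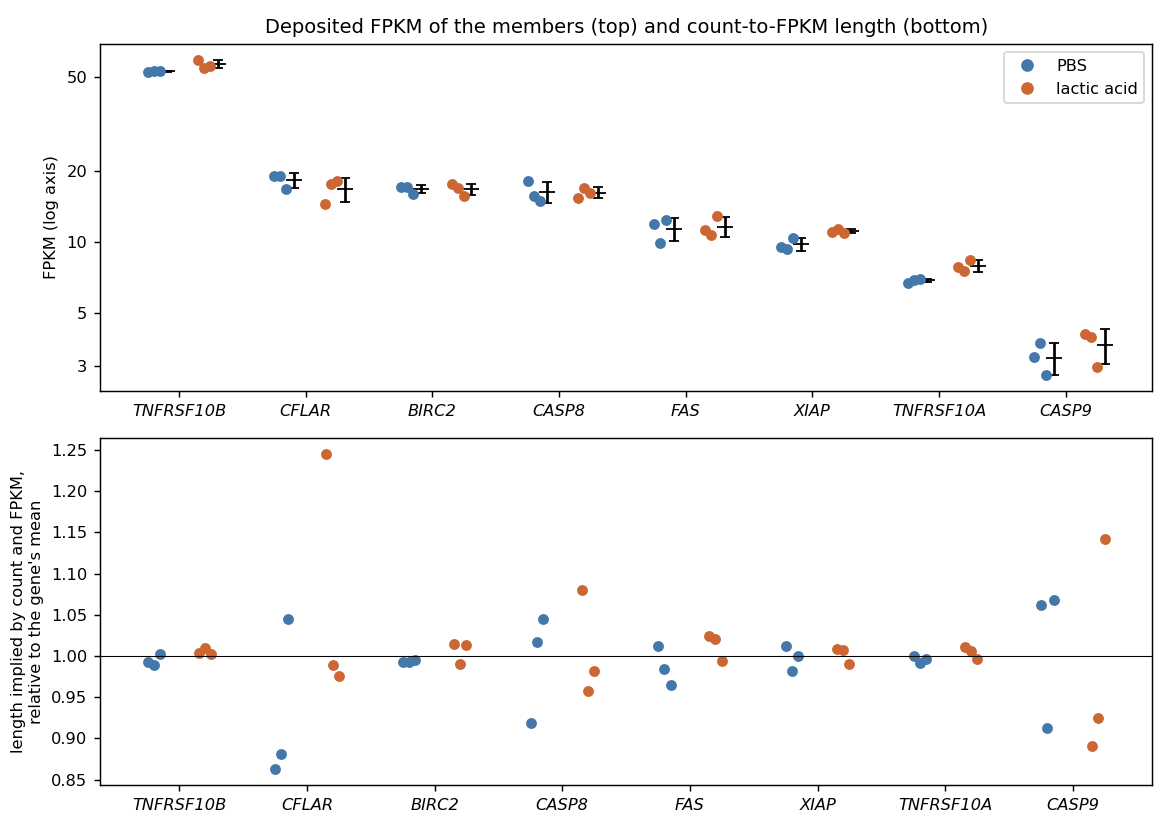
Top, deposited FPKM (log axis) of the 8 members in each PBS (blue) and lactic acid (orange) library with mean and SD of 3. Bottom, the length implied by count and FPKM relative to the gene's mean over 6 libraries: CFLAR, CASP8 and CASP9 scatter, and the other members lie near 1.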

How the data were processed

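The authors deposited whole-number counts per gene and FPKM per gene for 6 libraries of 150 bp paired reads. HISAT2, StringTie, DESeq2 and GRCh38 are named without versions or roles, per the submitters' processing notes; strandedness of the counting, the annotation version and how multi-mapping reads were counted were not given in the sources used here. The labels call the control columns WT and the files NS; columns were matched through the library names. Symbols were the deposited ones, except 12 that had turned into dates and were restored from GENCODE 29 (GRCh38). Gene coordinates came from GENCODE 29, matched by identifier for 19974 of 23827 genes. Promoters came from RefSeq (GRCh38.p14), matched for 6 of the 8 members.

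Counts were tested with edgeR 4.0.16 in R 4.3.3 (filterByExpr, minimum count 10 and total 15; TMM; group as the only term; two-sided), leaving 15474 genes, with Benjamini-Hochberg adjustment over all of them and a threshold of 0.05. The SE is the log2 fold change over the square root of F, and intervals are at 95%. Log2 ratios between members were compared by exact permutation over libraries (scipy 1.17.1). Within each group the libraries differed beyond Poisson sampling (chi-square per degree of freedom 6.14 to 9.08). Same-numbered libraries did not deviate together, so they were not treated as pairs. Nothing in the labels says that the replicates came from separate passages, so p-values measure the spread between these libraries.

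Alternatives were DESeq2 1.42.0, limma-voom (limma 3.58.1), RLE factors, unscaled totals, no filter, 50 counts in 3 libraries, the replicate number as a block, each library left out, and limma-trend of log2 FPKM with a pseudocount of 1 or 0.1 (genes reaching 1 FPKM in 3 libraries), or of log2(FPKM + 1) unfiltered. FPKM fold changes on a log2(value + pseudocount) scale understate the change of low genes. The members and lists were chosen with earlier results of these data known. Named were all members, the called list genes with the smallest p (up to 4 a direction and list, at 1 CPM or more), their close partners and paralogs, and the 3 nearest genes to the member with the smallest p; no member fell, so this was done in 1 direction. A few listed genes are counted in their lists but not reported here by name.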

Additional observations from a re-analysis of the deposited data

How the results depend on the processing

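The counts of calls and the log2 fold changes of the members were recomputed under 16 alternatives. Tested pathway genes named here were recomputed under those alternatives that tested them, and each log2 ratio under 8. Other values, such as those of cell type markers, overlapping genes, nearest matches and implied lengths, were not recomputed. Of the member calls, TNFRSF10A was lost in 2, TNFRSF10B in 3 and XIAP in 1, and no called member changed sign. With limma-trend on log2(FPKM + 1) with no filter, 0 members rose at the threshold, with log2 fold changes of 0.18 for TNFRSF10A, 0.097 for TNFRSF10B and 0.17 for XIAP. TNFRSF10B was also lost with the filter, at 0.097, or 0.098 with a pseudocount of 0.1. Genes called higher numbered 2892 of 15474 tested by edgeR. They numbered 1803 and 1798 of 12145 on the log2(FPKM + 1) and log2(FPKM + 0.1) scales, and 1618 of 20539 on the unfiltered log2(FPKM + 1) scale. The sets of tested genes differ, and the cause of the lower counts was not tested. On all 3 of these scales the sign turned for members that were not called: CASP8 (−0.0033 on each), BIRC2 (−0.0030, −0.0032 and −0.0030) and CFLAR (−0.13 on each). In the ratio of CFLAR to CASP8 the FPKM difference was −0.13. CYLD turned to 0.41, 0.47 and 0.41.

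With each library left out, the log2 fold change ran from 0.19 to 0.27 for TNFRSF10A, from −0.0093 to 0.14 for FAS, from 0.0057 to 0.065 for CASP8, from 0.063 to 0.19 for CASP9 and from −0.0047 to 0.065 for BIRC2, and the ratio of XIAP to CASP9 from −0.013 to 0.19, that of CFLAR to CASP8 from 0.00081 to 0.094. Pathway rises ran from 5 to 7 and pathway falls from 7 to 9.

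The replicate number as a block gave 2886 genes higher and 2596 lower, and 3 members higher as before. Correlations of same-numbered deviations were 0.022, −0.024 and 0.031. FADD lost its call under the block (edgeR adjusted p = 0.0514) and DIABLO gained one (0.0351). No member and no other tested pathway gene named here changed its call. Counts were few for CASP9, at 338 to 466, and for TNFSF10, FASLG and TNF, at 10 or fewer.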

Other observations

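The length implied by the counts and FPKM of CYLD was 5986, 7148 and 7225 bases in the PBS libraries and 4125, 4133 and 4144 bases after lactic acid. The 3 treated libraries were nearly equal and all below the PBS libraries, and the span of 1.75-fold was wider than that of 99.5% of 9913 genes with at least 300 counts in each library. Transcript-level values were not analysed.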
